A study of Triticum aestivum with 6 samples.

Results

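The genes described here are the 100 with the most even expression across 2 parts of the wheat endosperm, the innermost endosperm (IE) and the endosperm that remains around it (RE). They were chosen among the 3667 reference genes that averaged 20 FPKM or more (fragments scaled by transcript length and library total) in 6 libraries. For each gene, the largest of the 6 FPKM values was divided by the smallest, and the 100 genes with the lowest ratio were kept. They are 2.73% of the 3667 genes at this level and 100 of the 110790 reference genes in a table of 127196. The values that chose the genes are the same FPKM values that are described below, so the evenness of these genes is the rule and not a result.

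All 6 libraries came from field-grown grain of the winter wheat cultivar Zhoumai36, collected 25 days after anthesis. The central section of each grain was dissected after removal of the pericarp, and the 2 central lobe zones were taken as IE. All other endosperm tissue was pooled as RE, so this group holds aleurone as well as starchy cells. There were 3 IE and 3 RE libraries, and their labels give the region but no nitrogen treatment.

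Bread wheat is a hexaploid that carries A, B and D subgenomes, so most genes exist as homoeologues on the matching chromosomes of a group. The starchy endosperm is the storage tissue that accumulates starch and gluten proteins, while the aleurone is a living outer cell layer that serves in germination. A reference gene is used to correct a quantitative PCR for the amount of RNA loaded, and it is useful only if its level is the same in the samples compared. In an RNA library a level is always a share of the whole, so an even value means an even share of the RNA. Fewer cells of a type and less RNA per cell cannot be told apart in such data.

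The totals recovered from the values lay between 13959933 and 21766392 fragments on genes per library, and IE replicates 3 and 2 were the extremes. The endosperm check rested on the storage protein genes that the study annotates. The gliadin gene TraesCSU01G153800 averaged 42.3 ± 9.51 FPKM in IE against 23.7 ± 2.27 FPKM in RE (SD over 3 libraries). The globulin gene TraesCS4D01G171800 averaged 249 ± 133 FPKM in IE against 425 ± 106 FPKM in RE, so these transcripts were present in both regions. The globulin gene TraesCS7D01G351300 was weaker, with 2.86 ± 2.96 FPKM in IE against 3.86 ± 2.44 FPKM in RE. The study's methods call the replicates biological, while the labels give them numbers only, and the SD measures the spread between these libraries. Between IE and RE, 0 of 51830 genes that averaged 0.5 FPKM or more passed an adjusted p of 0.05 with a 2-fold change (limma, Benjamini-Hochberg), which is 0% of the genes. The smallest adjusted p was 0.359, and 5203 genes had an unadjusted p under 0.05. With limma's voom on recovered fragments 0 genes passed as well.

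The ratio of the largest to the smallest value ran from 1.09 to 1.24 among the 100 genes, with a median of 1.201. It was under 1.2 for 49 genes. Over all 3667 genes the median was 1.89 and the highest ratio 77.6, and 45.2% of them exceeded 2. The limit of the choice is a fine one. The last 3 genes inside were TraesCS5A01G459900 (1.2376), TraesCS2B01G363800 (1.2401) and TraesCS5D01G027600 (1.2404). The first 3 outside were TraesCS7B01G217200 (1.2405), TraesCS4D01G191400 (1.2405) and TraesCS2A01G118100 (1.2406), so genes just beyond the limit were as even as the last members.

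**Figure D1:**
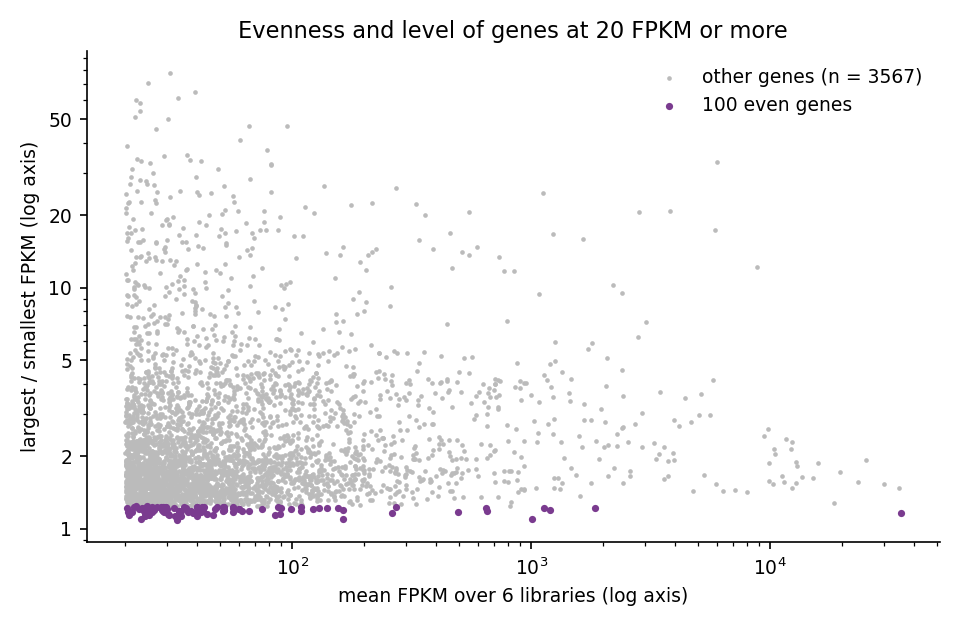
Ratio of the largest to the smallest FPKM of 6 libraries (vertical, log axis) against mean FPKM (horizontal, log axis) for 3667 reference genes that averaged 20 FPKM or more. Each point is a gene, and the 100 even genes (purple) form the lower edge from 20.4 to 35272 FPKM.

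The gene with the lowest ratio was TraesCS6A01G349500. Its level was 32.0, 33.3 and 34.2 FPKM in IE replicates 1, 2 and 3 and 31.4, 33.8 and 31.8 FPKM in RE replicates 1, 2 and 3. The regions overlapped, with means of 33.2 ± 1.08 FPKM in IE against 32.3 ± 1.28 FPKM in RE (SD over 3 libraries), and the ratio was 1.09. TraesCS2D01G541400 followed at a higher level, with 168, 163 and 167 FPKM in IE and 164, 153 and 163 FPKM in RE. Only RE replicate 2 stood below the others for this gene, and without that library its ratio fell to 1.03. TraesCS2D01G442500 had 999, 1030 and 971 FPKM in IE and 1038, 942 and 1035 FPKM in RE. Its means were 999.9 ± 29.5 FPKM in IE against 1005 ± 54.4 FPKM in RE (SD over 3 libraries), so the regions differed by less than the spread of either.

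The other genes among the 10 lowest averaged between 23.2 and 39.99 FPKM. TraesCS6D01G014200 had 22.8, 22.4 and 24.7 FPKM in IE and 22.6, 23.9 and 23.0 FPKM in RE. TraesCS4B01G049700 had 23.3, 22.8 and 25.6 FPKM in IE and 24.7, 22.7 and 25.5 FPKM in RE. For both genes the highest library was IE replicate 3, which also had the smallest total. TraesCS7B01G217400 had 35.9, 36.0 and 32.5 FPKM in IE and 31.7, 34.6 and 34.4 FPKM in RE, and TraesCS2D01G183100 had 38.7, 39.9 and 41.1 FPKM in IE and 42.0, 37.0 and 41.2 FPKM in RE. In TraesCS3D01G180500 the values were 32.8, 31.8 and 30.4 FPKM in IE, 34.0 and 34.1 FPKM in RE replicates 1 and 3, and 30 FPKM in RE replicate 2. The lowest library was thus RE replicate 1 for TraesCS7B01G217400 and RE replicate 2 for TraesCS2D01G183100 and TraesCS3D01G180500. TraesCS7A01G157200 had 25.6, 23.4 and 23.7 FPKM in IE and 26.6, 25.0 and 26.0 FPKM in RE, and TraesCS1D01G321100 had 30.5, 29.1 and 28.7 FPKM in IE and 30.2, 31.1 and 32.8 FPKM in RE. The last pair leaned towards RE, yet their regions overlapped as those of the other 8 genes did. Over the 10 genes the log2 fold change of IE relative to RE lay between -0.10 and 0.05.

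**Figure D2:**
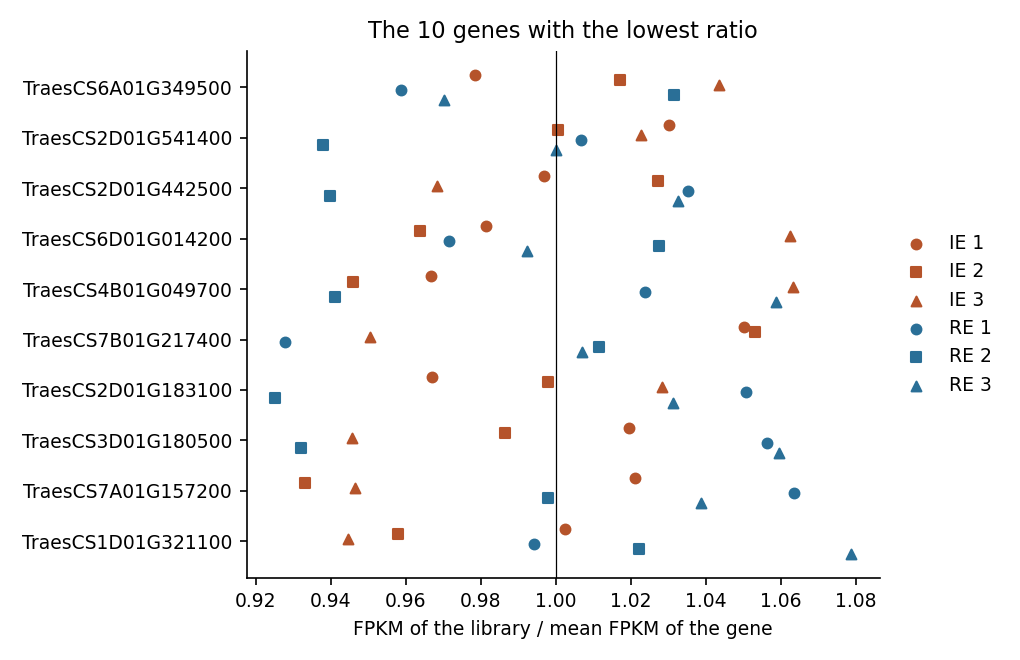
FPKM of each library divided by the mean FPKM of the gene (horizontal, linear axis from 0.92) for the 10 genes with the lowest ratio, IE libraries in orange and RE libraries in blue. IE and RE points mix in every row, from a ratio of 1.09 in the top row to 1.14 in the bottom row.

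The mean level of the 100 genes ran from 20.4 to 35272 FPKM with a median of 39.6 FPKM, against a median of 42.2 FPKM over the 3667 genes. The count was 64 genes between 20 and 50 FPKM, 18 between 50 and 100, 13 between 100 and 1000 and 5 at 1000 FPKM or more. These are 3.05%, 2.39%, 1.89% and 3.94% of the reference genes in the same bands, so even genes occurred at every level. The median ratio of all genes in the bands was 1.79, 1.93, 2.09 and 2.29 in the same order.

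TraesCS5D01G004100 was the most abundant of all genes in the table. Its level was 38178, 35833 and 35798 FPKM in IE replicates 1, 2 and 3 and 35768, 33419 and 32635 FPKM in RE replicates 1, 2 and 3. All IE libraries exceeded all RE libraries, though the lowest IE library (35798 FPKM) and the highest RE library (35768 FPKM) were nearly equal. The 100 genes took between 3.93% and 4.32% of the summed FPKM of a library, and without TraesCS5D01G004100 the other members took between 0.971% and 1.06%. The most abundant even gene therefore weighed more in a sum than all the others.

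The next most abundant members stood between 1002 and 1845 FPKM on average. TraesCS5B01G131500 had 2087, 1772 and 1961 FPKM in IE and 1712, 1723 and 1817 FPKM in RE. TraesCS2B01G402500 had 1287, 1254 and 1243 FPKM in IE and 1236, 1069 and 1122 FPKM in RE, and was higher in every IE library. TraesCS1A01G280700 had 1231, 1020 and 1153 FPKM in IE and 1245, 1031 and 1113 FPKM in RE. For this gene, replicate 1 was the highest and replicate 2 the lowest in each region, and the regions differed less than the replicates.

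At the other end, TraesCS7D01G378500 was the weakest member, with 20.6, 18.9 and 19.6 FPKM in IE and 19.9, 20.2 and 23.1 FPKM in RE. TraesCS6B01G216100 had 21.3, 21.1 and 19.2 FPKM in IE and 19.7, 22.5 and 19.5 FPKM in RE, and TraesCS1A01G110300 had 20.2, 21.2 and 20.2 FPKM in IE and 19.4, 23.0 and 20.3 FPKM in RE. In these genes a single RE library was the highest, RE replicate 3 for the first and RE replicate 2 for the others. TraesCS6A01G190000 had 22.2, 20.3 and 22.1 FPKM in IE and 20.7, 19.6 and 19.4 FPKM in RE, and TraesCS7B01G228100 had 23.6, 21.5 and 20.7 FPKM in IE and 20.93, 20.04 and 21.12 FPKM in RE. Both leaned towards IE, with regions that overlapped.

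The precision of these values is set by the number of fragments behind them. The smallest number of fragments in any library was 98 (TraesCS5D01G417000, 171 bases long) and the median of the lowest library of a member was 371 fragments. Counting alone would give a median SD of 0.066 on the log2 scale, taken as the root mean square of the counting error of the 6 libraries. The measured SD of log2 FPKM had a median of 0.10 (from 0.05 to 0.13), against 0.35 over the 3667 genes. The measured SD was no larger than the counting SD in 10 members and under 2 times as large in 69. For TraesCS6A01G349500 it was 0.65 times and for TraesCS6D01G014200 0.61 times the counting SD, so their spread was smaller than counting alone gives on average. For TraesCS5D01G004100, with between 253866 and 396217 fragments, it was 31.9 times as large. The counting SD covers counting error only, and amplified fragments are not independent molecules.

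The libraries did not contribute evenly to what spread remained. IE replicate 1 was the highest library for 28 of the 100 genes and RE replicate 1 for 21, and they were the lowest for only 8 and 10. RE replicate 2, IE replicate 2 and IE replicate 3 were the lowest for 24, 23 and 22 genes, and RE replicate 3 was the highest for 13 and the lowest for 13. Over the 3667 genes, by contrast, IE replicate 3 was the lowest library of 35.2% and IE replicate 2 the highest of 26.7%. The highest and the lowest value came from the same region in 35 of the 100 genes, and in 35.4% of the 3667. The largest difference thus lay between a library of IE and one of RE for the other 65 members.

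The log2 fold change of IE relative to RE had a median of -0.0034 over the 100 genes (from -0.21 to 0.18), with 49 genes above 0 and 51 below. It was under 0.05 in size for 44 genes and over 0.1 for 26. The rule used this contrast, so these values describe the choice. The median was -0.12 over the 51830 genes tested and -0.09 over the 3667, among which 44.0% exceeded 0.3 in size. The standard errors from limma, which borrow the spread of other genes at the same level, lay between 0.17 and 0.42. Of the 100 fold changes, 96 were smaller than their standard error. The choice kept the fold changes small while the borrowed spread is that of less even genes, so this count also describes the choice. The limma comparison called 0 of the members. At an unadjusted p of at most 0.05 with a 2-fold change it also called 0 of the members, where 5.75% of the genes tested passed. With ratios of at most 1.24 no member could reach a 2-fold change, so both counts of 0 were fixed by the rule.

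The rule did not require overlap between the regions. In 11 of the 100 genes the regions did not overlap, 4 higher in IE and 7 lower. The share over all 51830 genes was 16.3% (4.35% higher and 11.9% lower). The largest differences downwards were TraesCS3D01G336300 at 55.1, 54.1 and 57.7 FPKM in IE against 65.6, 62.4 and 65.1 FPKM in RE, and TraesCS5D01G019500 at 34.59, 31.02 and 32.63 FPKM in IE against 37.5, 37.8 and 38.2 FPKM in RE. TraesCS1A01G350200 went the same way, with 122, 121 and 116 FPKM in IE and 133, 139 and 142 FPKM in RE. All RE libraries lay above all IE libraries in these genes, at log2 fold changes of -0.21, -0.21 and -0.20. In the other direction, TraesCS5B01G222800 had 28.2, 28.1 and 27.1 FPKM in IE and 26.5, 24.3 and 23.1 FPKM in RE, a log2 fold change of 0.18. A low ratio over 6 libraries therefore allowed regions that did not overlap. The rule also limits differences between the regions, so the smaller share among the members is part of the choice. The limma standard errors of the fold changes named here lay between 0.17 and 0.18, and these genes were picked as the largest differences. An offset was thus not established for them. TraesCS1A01G280700, with wider replicates, had means of 1135 and 1130 FPKM, and its standard error of 0.25 leaves room for an offset of the same size.

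No table at hand pairs these identifiers with gene names or with homoeologues, and 0 identifiers of the table were found in the RefSeq gene table (assembly IWGSC CS RefSeq v2.1). Candidate homoeologues were therefore taken as genes on different chromosomes of a group whose identifiers stand at the same relative place, within 0.02 of the numbering of the chromosome, and whose lengths differ by at most 10%. Homoeology itself was not tested. The rule is a loose one. Among the reference genes that averaged 20 FPKM or more, 79.4% had at least a candidate partner at this level, as did 77 of the 100 genes. By this rule, 8 pairs with 16 genes lay inside the 100, so both genes of each pair were even by the choice. The word copy is used below for a candidate homoeologue only.

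TraesCS5B01G131500 and TraesCS5D01G139300, both 711 bases long, were the most abundant pair. The latter had 690, 681 and 618 FPKM in IE and 565, 659 and 673 FPKM in RE, and the B copy exceeded the D copy by 2.86 ± 0.248 times (SD, n = 6 libraries). TraesCS5A01G134000, of the same length, lay outside the 100, at 1525, 1198 and 1402 FPKM in IE against 1036, 1116 and 1191 FPKM in RE. Its ratio was 1.47, with IE above RE in every library, so the A copy was less even than the B and D copies.

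TraesCS2A01G385600 had 525, 466 and 515 FPKM in IE and 504, 446 and 491 FPKM in RE, or 0.409 ± 0.0215 times TraesCS2B01G402500 (SD, n = 6). TraesCS4A01G312200 had 32.5, 27.8 and 28.2 FPKM in IE and 31.6, 31.3 and 26.9 FPKM in RE. TraesCS4D01G227400 had 104.6, 102.9 and 86.23 FPKM in IE and 103.5, 99.36 and 93.81 FPKM in RE. The 4A gene was 0.303 ± 0.0206 times as high as its candidate partner on 4D (SD, n = 6). Their lengths of 903 and 972 bases differ, and whether they are homoeologues was not tested. Unequal levels of the paired genes were thus kept in every library of these candidate pairs.

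TraesCS7A01G107400 had 84.7, 86.8 and 85.2 FPKM in IE and 78.1, 81.3 and 89.6 FPKM in RE. TraesCS7D01G101800 had 47.4, 53.2 and 50.2 FPKM in IE and 49.3, 43.1 and 46.7 FPKM in RE, and the A copy was 1.75 ± 0.137 times as high (SD, n = 6). Where the A copy was highest, in RE replicate 3, the D copy was not, and the sum of both copies had a ratio of 1.125, less than that of either copy alone.

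The remaining pairs had copies at more similar levels. TraesCS2A01G539800 had 146, 143 and 125 FPKM in IE and 154, 129 and 144 FPKM in RE, which was 0.860 ± 0.0604 times TraesCS2D01G541400 (SD, n = 6). TraesCS3A01G521500 had 24.0, 23.3 and 22.2 FPKM in IE and 26.5, 23.3 and 23.9 FPKM in RE, or 0.698 ± 0.0542 times TraesCS3B01G591300 (SD, n = 6). The B copy had 32.0, 37.3 and 31.5 FPKM in IE and 36.2, 36.5 and 32.4 FPKM in RE. The regions of the B copy spanned nearly the same range, whereas the A copy was highest in RE replicate 1.

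TraesCS6B01G216100 was expressed at 0.824 ± 0.0640 times TraesCS6D01G178200 (SD, n = 6), which had 27.9, 23.1 and 25.0 FPKM in IE and 25.0, 25.2 and 23.8 FPKM in RE. TraesCS5A01G182800 had 29.7, 30.7 and 31.2 FPKM in IE and 29.7, 26.1 and 29.5 FPKM in RE, and TraesCS5D01G187200 had 27.1, 26.2 and 27.6 FPKM in IE and 27.3, 28.3 and 32.2 FPKM in RE. The A copy lay just higher in IE, with 29.72 FPKM in its lowest IE library and 29.70 FPKM in its highest RE library, and the D copy leaned towards RE, so the ratio of A to D ranged from 0.917 to 1.17 while their sum had a ratio of 1.14. The ratio of the summed FPKM lay between 1.125 and 1.219 over the 8 pairs. How reads common to both copies were assigned is not given in the sources used here, and a primer that amplifies both copies would measure the sum.

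**Figure D3:**
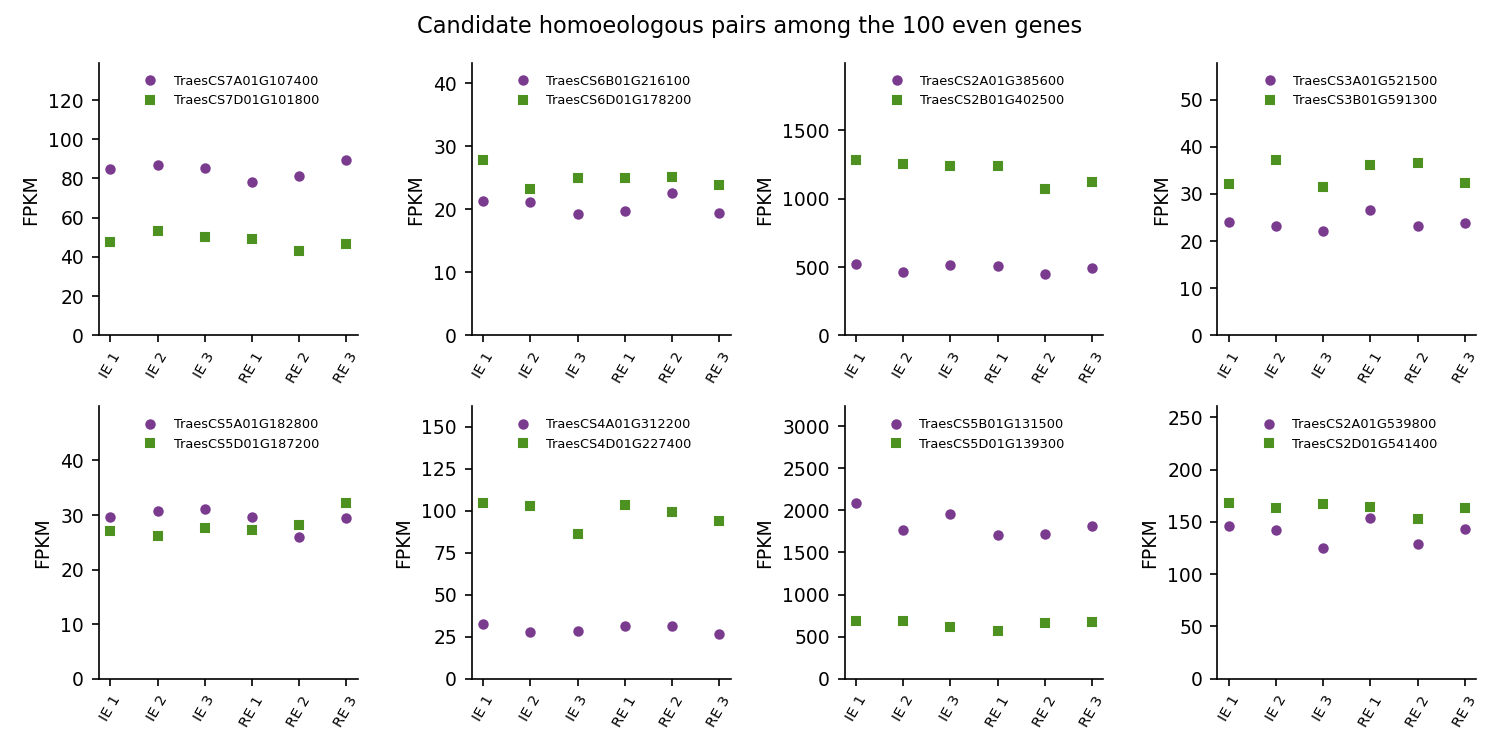
FPKM (vertical, linear axis from 0) in the 6 libraries for the 8 candidate homoeologous pairs, the first gene of each pair in purple circles and the second in green squares. The levels of the copies stay apart in every library except for TraesCS5A01G182800 and TraesCS5D01G187200, whose order changes in RE replicates 2 and 3.

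Partners of exactly the same length were found for 30 of the 100 genes among the 3667, giving 33 different partner genes. Of these, 8 were members and 25 were not. Of the 33 partners, 32 had a ratio under the median of the 3667 genes, and the 25 outside the members had a median ratio of 1.36, with 21 under 1.5. Over all 745 genes that are an equal-length partner of any of the 3667, the median was 1.74. The exception was TraesCS2B01G471600, at a ratio of 3.98. It shares its 363 bases with TraesCS2D01G442500, as does TraesCS2B01G464400, which had a ratio of 1.35. The partners share their libraries with the members, so the values are given side by side with no test.

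The 100 genes were spread over all 21 chromosomes and the unplaced sequences. The A, B and D subgenomes held 28, 31 and 36 of them, which are 2.26%, 2.80% and 2.82% of the genes at 20 FPKM or more there. Chromosome 5D held the most with 10 (4.8% of its genes at this level), followed by 7D with 9 (4.3%). Chromosome 6D held 5 at nearly the same share (4.2%), while 3A held 1 gene, TraesCS3A01G521500 (0.565%). The unplaced sequences held 5 of their 45 genes at this level. One pair lay close together on a chromosome, TraesCS7A01G316100 and TraesCS7A01G316800, with 7 places between their identifiers. The lengths ran from 171 to 2831 bases with a median of 707, against 810 over the 3667 genes. They were whole multiples of 3 in 80% of the members and 83.3% of the 3667.

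Of 24 genes in 7 functional groups, taken from the genes that the study names by identifier, 0 were among the 100. A mean of at least 20 FPKM was reached by 8 of them, with ratios between 1.87 and 33.6. The 100 are 2.73% of the reference genes at this level, so a count of 0 among 8 is near the general share. The lowest was that of the serine protease inhibitor gene TraesCS5A01G359700, and the highest belonged to a nitrate reductase gene. The study reported these genes for differences between treatments or regions, and not all genes it names were included. The unevenness of these groups is thus no independent result.

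As a reference, the geometric mean of the 100 genes stood at 1.02, 0.987 and 0.988 of its overall level in IE replicates 1, 2 and 3 and at 1.02, 0.982 and 1.00 in RE replicates 1, 2 and 3. The ratio of the highest to the lowest library was 1.04, and the log2 difference between IE and RE was -0.01. With the 3 genes of lowest ratio the corresponding values were 1.05 and 0.03, and with the 10 lowest they were 1.05 and -0.01. These values come from the libraries that chose the genes and describe the choice. The SD of the log2 ratio of one member to another, averaged over the other members, had a median of 0.13 (from 0.10 to 0.16). It was lowest for TraesCS2D01G541400, and next lowest for TraesCS2D01G442500. The pair with the steadiest ratio was TraesCS4A01G093600 and TraesCS5A01G275000, with an SD of 0.024 on the log2 scale. The former had 26.2, 21.4 and 22.9 FPKM in IE and 25.9, 24.2 and 24.0 FPKM in RE, and the latter 32.1, 26.1 and 27.2 FPKM in IE and 31.1, 29.2 and 29.9 FPKM in RE. The pair was picked as the lowest of all pairs, and its SD is smaller than the counting SD of either gene alone (0.0708 and 0.0766).

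For scale, genes that the study annotates were set against the members. The GRAS transcription factor gene TraesCS2B01G217500 had 3.90, 7.64 and 5.64 FPKM in IE against 0.944, 1.68 and 1.64 FPKM in RE. Its mean log2 difference was 2.01 with the FPKM values, 2.02 relative to all 100 genes and 1.97 relative to TraesCS6A01G349500. Relative to each member in turn, the difference ran from 1.83 to 2.22. For the bZIP gene TraesCS7B01G391800 the same values were 1.74, 1.75 and 1.70, with a range from 1.56 to 1.95. For the amino acid transporter gene TraesCS2A01G348600, lower in IE, they were -2.14, -2.13 and -2.18, with a range from -2.32 to -1.93. The shift equals the member's own difference between the regions, which the choice held near 0 in these same libraries, so its size is part of the rule.

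Evenness in the libraries used for the choice was then compared with evenness in a library that was not used. Each library was left out in turn, 100 genes were chosen on the other 5, and the left-out value was set against the mean of the other 5 on the log2 scale. The median deviation in size was 0.17, 0.27 and 0.22 for IE replicates 1, 2 and 3 and 0.19, 0.17 and 0.11 for RE replicates 1, 2 and 3. Over all genes that averaged 20 FPKM or more in the other 5, it was 0.28, 0.33 and 0.39 for the IE libraries and 0.26, 0.21 and 0.25 for the RE libraries. The chosen genes were thus closer to the others than genes at large in each of the 6 left-out libraries, but less close than the 100 genes chosen on all 6, whose medians lay between 0.069 and 0.11. Between 9 (RE replicate 3) and 47 (IE replicate 2) of the 100 deviated by more than 0.3, against 42.2% and 53.3% of all genes at this level in the same libraries. For IE replicate 2 the count was thus near the general share. The largest ratio over all 6 libraries reached 2.63, without IE replicate 3. Of the 100 genes, between 42 (without IE replicate 2) and 73 (without RE replicate 3) were chosen again. No test was made of these values, since each left-out library is a single one and the choices share libraries.

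**Figure D4:**
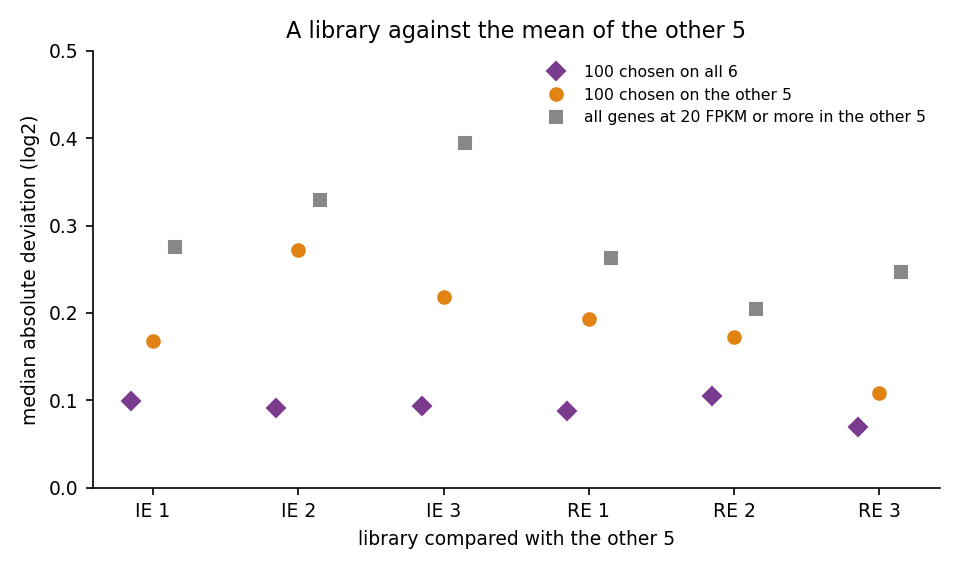
Median absolute deviation of a library from the mean of the other 5 (vertical, log2 scale from 0) for the 100 genes chosen on all 6 libraries (diamonds), the 100 chosen on the other 5 (circles) and all genes that averaged 20 FPKM or more in the other 5 (squares). Circles lie between diamonds and squares in every library, from 0.11 in RE replicate 3 to 0.27 in IE replicate 2.

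The members depended strongly on how the libraries were scaled. With the values rescaled to the same sum (the TPM scale), the median ratio of the 100 genes was 1.21, and with median-ratio scaling, which sets the typical gene equal between libraries, it was 1.35. The geometric mean of the 100 genes was then 1.06, 0.925 and 1.16 in IE replicates 1, 2 and 3 and 1.05, 0.900 and 0.940 in RE replicates 1, 2 and 3, a range of 1.29 times with IE replicate 3 the highest. With median-ratio scaling the median log2 fold change of the members was 0.12 and that over all tested genes 0.00, which restates a choice near 0 on the FPKM scale. By library the regions overlapped, since IE replicate 2 lay below RE replicates 1 and 3. Of the 100 genes, 26 were also chosen with median-ratio scaling, and the 3 most even genes there, TraesCS2A01G155200, TraesCS2D01G190400 and TraesCS4B01G045500, were outside the members. All these scalings give relative levels, so the amount of RNA per cell cannot be read from any of them.

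**Figure D5:**
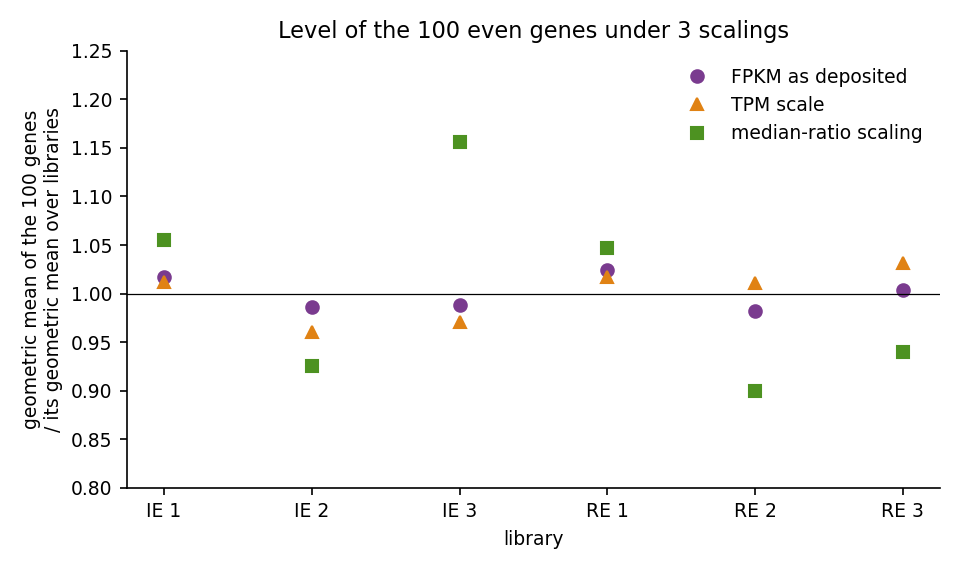
Geometric mean of the 100 even genes divided by its geometric mean over the libraries (vertical, linear axis from 0.8) with FPKM as deposited (circles), on the TPM scale (triangles) and with median-ratio scaling (squares). The circles lie between 0.982 and 1.02, while the squares run from 0.900 in RE replicate 2 to 1.16 in IE replicate 3.

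In all, 21 of the 100 genes were also chosen on the TPM scale, with median-ratio scaling, by the coefficient of variation and by the SD of log2 values, and 10 of these were chosen with each library left out as well. They were TraesCS7B01G217400, TraesCS7A01G157200, TraesCS1D01G321100, TraesCSU01G099700, TraesCS4B01G392700, TraesCS6B01G236800, TraesCS4A01G179700, TraesCS6B01G216100, TraesCS7A01G316800 and TraesCS3B01G591300. All these choices used the same 6 libraries, so being chosen again is no independent support for use as a reference. The levels of the 10 genes lay between 20.5 and 46.6 FPKM. Their ratios were between 1.14 and 1.18 with the FPKM values, between 1.14 and 1.23 on the TPM scale and between 1.2 and 1.27 with median-ratio scaling. TraesCS6A01G349500 and TraesCS2D01G541400, the first genes by ratio, had ratios of 1.34 and 1.39 with median-ratio scaling and were not among the 10. The 10 lie below a minimum of 50 FPKM, which is not among these settings. In TraesCSU01G099700 the regions did not overlap, at 43.8, 44.8 and 43.5 FPKM in IE against 49.0, 48.7 and 49.7 FPKM in RE. Its log2 fold change was -0.16 with a limma standard error of 0.17. A gene chosen under all these settings could thus still have regions that did not overlap.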

How the data were processed

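Total RNA of 3 IE and 3 RE samples was sequenced, and the authors deposited 1 table of FPKM values per gene. Per the labels, reads were cleaned with fastp and aligned with HISAT2. The counting tool and its use of strand are not given in the sources used here. Whole fragments, lengths and totals were recovered from the steps of the FPKM values, for 86041 of the 86042 genes with a value. Counting SDs came from these fragments.

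Regions were compared with limma 3.58.1 (R 4.3.3) on log2(FPKM + 0.1) with a trend, for genes that averaged 0.5 FPKM or more, and p-values were adjusted after Benjamini and Hochberg. Fold changes on this scale understate low genes. The scripts, run with Python 3.11.15, were tested on simulated data.

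The members and lists were chosen with earlier results of these data known. Named genes were the 10 with the lowest ratio, the 5 highest and 5 lowest in level, 3 on each side of the limit and the candidate homoeologues, with study-annotated genes for scale. Other genes were named after their values were seen. Alternatives were the TPM scale, median-ratio scaling, other pseudocounts, filters, levels and measures of spread, a replicate block, voom and leaving out each library. The labels give no nitrogen treatment, which was not analysed here.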

Additional observations from a re-analysis of the deposited data

How the results depend on the processing

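With median-ratio scaling the median ratio of the 100 genes was 1.346, their median log2 fold change 0.12 and the number of genes chosen again 26. With a minimum of 10 FPKM 51 were chosen again, and with 50 FPKM 36, at a median ratio of 1.267. Leaving out each library gave 42 to 73 genes chosen again and median ratios of 1.144 to 1.18 over the 5 libraries used for the choice, or 1.201 to 1.302 over all 6. The median log2 fold change of the 100 then lay between -0.027 and 0.013. The TPM scale, the coefficient of variation and the SD of log2 left 77, 87 and 86 genes. Of 34 named genes, all had a larger ratio with median-ratio scaling, from 1.2 to 1.58.

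The comparison of IE and RE gave 0 DEGs under every alternative run, with a smallest adjusted p between 0.0564 (limma, without IE replicate 2) and 0.625. Genes with an unadjusted p of at most 0.05 and a 2-fold change numbered 2980, 1437 with a pseudocount of 1, 4821 without a filter on low values, 2948 with voom and 2122 to 5222 with a library left out, the highest without IE replicate 2. Of these, 850 were higher and 2130 lower in IE, against 1325 and 1897 with median-ratio scaling. A replicate block gave 0 DEGs and 3357 unadjusted calls. Deviations of same-numbered libraries correlated at 0.111, 0.059 and -0.203, so the numbers were not taken as pairs. The cause of these changes was not tested. In 10 members the SD of log2 values was no larger than the counting SD, so depth limits what their spread can show.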

Other observations

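Of 157 newly assembled genes that averaged 20 FPKM or more, which the choice left out, 4 were as even as the members. The choice kept 2.73% of the reference genes at this level. The most even of the 4 had 24.4, 25.3 and 26.5 FPKM in IE and 27.3, 25.9 and 23.9 FPKM in RE, a ratio of 1.14. The others had ratios of 1.189, 1.216 and 1.227.

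Other genes were even within each region but not between them. Of the 3667 genes, 278 had ratios within IE and within RE no larger than the highest ratio of the members, and these include the 100. The regions of 19 were apart by at least 0.5 on the log2 scale, 8 higher in IE and 11 lower, and 0 were apart by 1 or more. TraesCS1D01G028100 had 977, 981 and 976 FPKM in IE and 673, 562 and 687 FPKM in RE, a log2 difference of 0.61. TraesCSU01G122800 had 28.5, 25.3 and 23.5 FPKM in IE and 14.96, 16.43 and 15.43 FPKM in RE, a log2 difference of 0.72. TraesCS1D01G002200 had 17.4, 16.3 and 14.2 FPKM in IE and 29.2, 25.6 and 27.4 FPKM in RE, a log2 difference of -0.78. These genes were selected by their values, so no test was made.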
